A study of Bos taurus and Bos indicus with 6 samples.

Results

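Solute carriers are the membrane proteins, named SLC, that move amino acids, sugars, metal ions, nucleosides and other small molecules across cell and organelle membranes. The genes described here are those that the array's annotation table names with 1 symbol starting with SLC and a digit, leaving out the mitochondrial carriers SLC25A. The rule found 213 probe sets for 152 genes, out of 9155 genes with a single symbol and 24016 probe sets tested. A probe set is a group of short probes for 1 transcript, and each gene is represented by its probe set with the highest mean over all 6 arrays. The rule used signal level and no breed difference.

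White blood cells came from 3 Holstein (Bos taurus) and 3 Brahman (Bos indicus) cattle, all female, all 6 months of age and all under heavy challenge with the tick Rhipicephalus microplus. Each animal has its own array, so n = 3 per breed throughout and the spread holds both animal and array variation. The cells were all leukocytes left after red cell lysis of jugular blood, with no sorting or culture. Because both breeds carried ticks, a difference that exists without ticks cannot be told apart from one that does not. All values are log2 RMA signals, which rank arrays for 1 probe set but do not give RNA amounts that can be compared between genes. Differences are Brahman minus Holstein on the log2 scale, and a plus or minus sign after a mean is the SD.

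Leukocytes depend on such carriers for the nutrients they burn and build with. Activated lymphocytes take in glucose through the facilitative carriers SLC2A1 and SLC2A3, export lactate through the monocarboxylate carrier SLC16A3, and import large neutral amino acids through SLC7A5 bound to its heavy chain SLC3A2. Phagocytes use SLC11A1 to withdraw iron and manganese from the vacuole that holds a microbe, and zinc carriers of the SLC30 (export) and SLC39 (import) families set the zinc of the cytosol.

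No solute carrier gene passed the test between the breeds after adjustment over all probe sets. Limma, a linear model with a variance prior shared over probe sets, called 0 of 152 at an adjusted p under 0.05, where it called 0.137% of all tested probe sets. The smallest adjusted p of a member was 0.181. At an unadjusted p under 0.05, 13 members (8.55%) had higher and 10 (6.58%) had lower values in Brahman, together 15.1% of them. The same threshold was reached by 13.6% of all probe sets, 7.12% higher and 6.47% lower, so the members' share lies near the background. Over genes taken with their brightest probe set it was reached by 15.8%, of which 6.23% were higher and 9.62% lower. In 32 members (21.1%) the 3 Brahman and 3 Holstein values did not overlap, against 20.0% of all probe sets and 22.7% of genes. Brahman was the higher breed in 16 of them and the lower in 16, where 11.7% and 8.37% of all probe sets were so. The median difference was 0.0053 over the members and 0.023 over all probe sets. What follows therefore describes values, and "higher" and "lower" refer to the measured means of these 6 arrays.

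**Figure D1:**
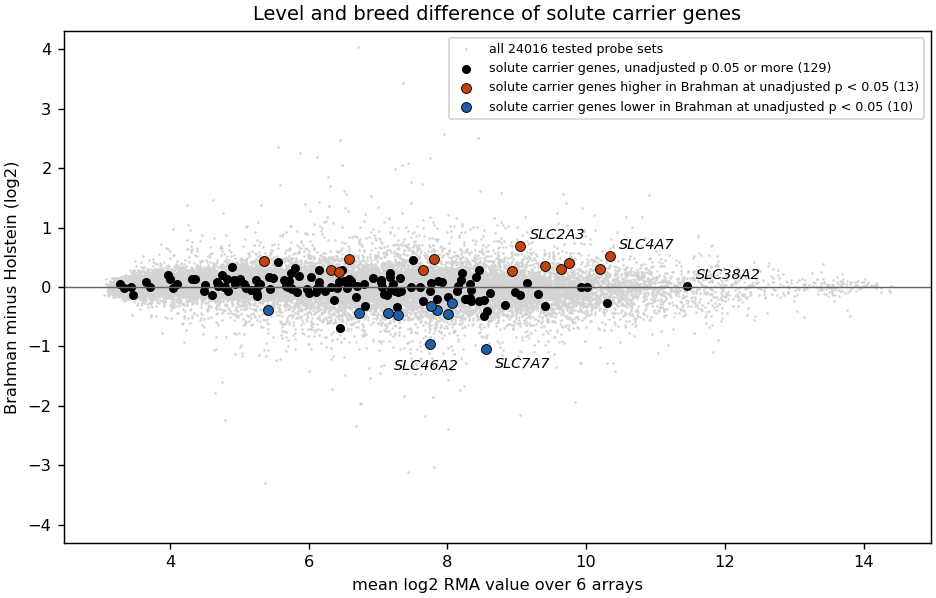
Mean log2 signal over the 6 arrays (horizontal) against the Brahman minus Holstein difference (vertical) for 152 solute carrier genes over all 24016 tested probe sets in grey. Members higher (13) or lower (10) at an unadjusted p under 0.05 are coloured; SLC7A7, at -1.04, is the only member past 1 log2 unit, and the brightest, SLC38A2, lies at 0.019.

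The members spanned most of the array's signal range, from 3.28 for SLC22A9, a kidney and liver type of organic anion carrier, to 11.45 for the glutamine and alanine importer SLC38A2. Of the 152, 76 lay above the median of all probe sets (6.59) and 28 below the lower quartile (5.08). No detection calls were used here, and a level alone does not show that a transcript is present: liver albumin (ALB) read 9.66 ± 0.18 in Brahman cells. The 28 dim members differed by -0.13 to 0.34, and 0 of them reached an unadjusted p under 0.05, where 87 of 1176 genes below that quartile (7.40%) did. Members grouped there include SLC4A1, the anion exchanger of red cells, at 4.13 ± 0.11 and 4.08 ± 0.017, SLC2A2, the glucose carrier of liver, and SLC6A14.

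The array medians lay between 6.54 and 6.61. Hybridisation spike-in controls read 9.64 to 9.80 on the Brahman arrays and 9.94 to 10.38 on the Holstein arrays, without overlap. Summed signals of 14 T cell markers were 14.18 to 14.40 in Brahman and 13.75 to 13.97 in Holstein, those of 4 monocyte markers 10.81 to 11.20 and 11.13 to 11.77, and those of 8 neutrophil markers 14.50 to 15.02 and 14.67 to 14.99. Of the T cell markers 12 of 14 had higher values in Brahman, and 9 markers reached an unadjusted p under 0.05. Of the monocyte markers 1 of 4 was higher. Of the B cell markers 1 of 4 was higher, BLK, by 0.97. Of the 8 neutrophil markers 4 were higher and 4 lower, with ALPL at 1.42 and FCGR3A at -0.78. Summed signals of 7 NK and cytotoxic markers were 11.52 to 12.31 in Brahman and 11.45 to 11.89 in Holstein. In that list 6 of 7 were higher, and GZMB differed by 2.51 (limma adjusted p = 0.0264). Among the defining markers, CD3E stood at 11.46 ± 0.078 in Brahman and 10.92 ± 0.15 in Holstein, the B cell marker MS4A1 at 12.68 ± 0.13 and 12.81 ± 0.18, and the neutrophil protein S100A8 at 13.58 ± 0.19 and 13.60 ± 0.16. In such mixed cells, fewer cells of a type and less RNA per cell cannot be told apart, and the part of cell composition in any member's difference was not tested. The spike-in level was entered as a covariate for every member, in a fit where the median SE was 1.77 times as large. Relative to the fit without it, 64 of the 152 differences were over 1.5 times larger, 22 were over 1.5 times smaller, 42 had the other sign and 24 lay within 1.5 times.

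The plot of values by array shows the 23 members at an unadjusted p under 0.05, and the sections below take them by substrate. In 20 of them the breeds did not overlap, 11 higher and 9 lower in Brahman. SLC4A7, SLC2A3 and SLC17A5 reached the threshold with overlapping breeds.

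**Figure D2:**
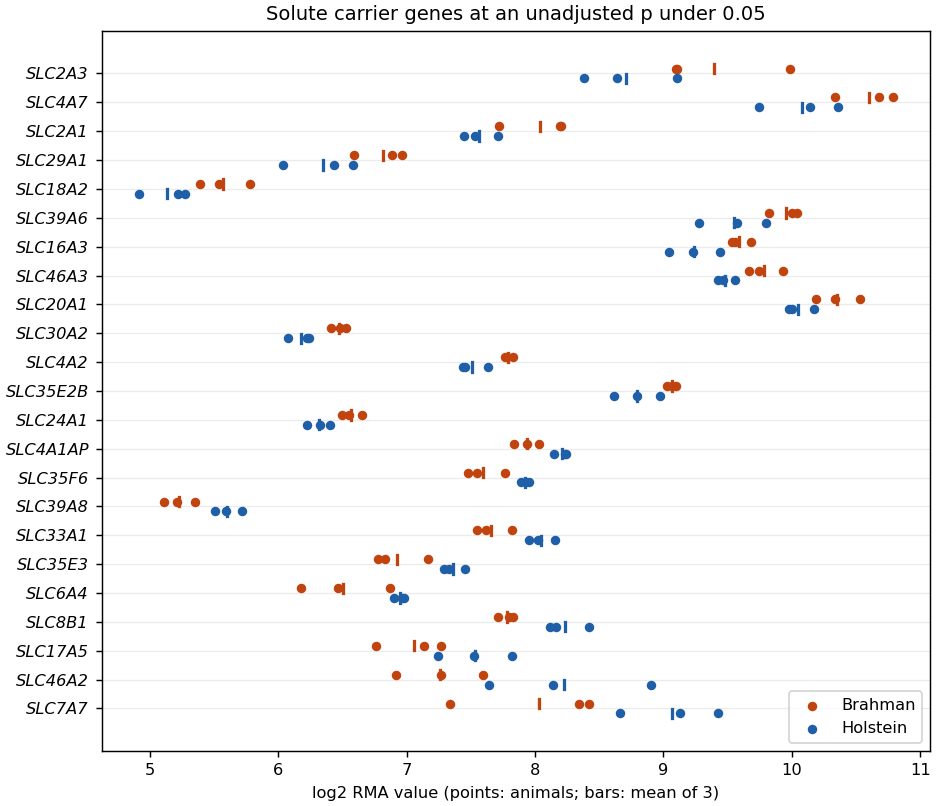
Log2 RMA values of the 23 solute carrier genes at an unadjusted p under 0.05, each point 1 animal and each bar the mean of 3, ordered by difference. Differences run from -1.04 (SLC7A7) to 0.69 (SLC2A3), and the 2 breeds' points overlap for SLC2A3, SLC4A7 and SLC17A5.

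The amino acid carriers, 23 genes, had 12 higher and 11 lower values in Brahman and their median difference was 0.0062. The largest was that of SLC7A7, which forms with SLC3A2 the exporter of arginine and lysine known from monocytes and macrophages. SLC7A7 read 7.34, 8.34 and 8.42 in Brahman 1, 2 and 3 and 9.42, 9.13 and 8.66 in Holstein 1, 2 and 3. All 3 Holstein arrays were above all 3 Brahman arrays, and Brahman 1 lay a full unit below the other Brahman arrays. The means were 8.03 ± 0.60 and 9.07 ± 0.38, a difference of -1.04 (SE 0.31, 95% interval -1.77 to -0.30, limma adjusted p = 0.252), or 2.05-fold. It was the largest difference of any member and the only one past 1 log2 unit, a size that 0.820% of all probe sets exceeded. Without Brahman 1 it shrank to -0.69.

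SLC7A7 and its heavy chain were measured by separate probe sets. SLC3A2, the heavy chain also known as CD98, read 8.43, 8.28 and 8.29 in Brahman and 8.78, 8.48 and 8.44 in Holstein. The breeds did not overlap, but the highest Brahman value lay only just under the lowest Holstein one, and the difference was -0.23 (SE 0.12, limma adjusted p = 0.434). SLC7A5, the large neutral amino acid carrier that shares this heavy chain, differed by 0.16 with overlap. SLC7A7 and SLC3A2 thus both had lower values in Brahman and SLC7A5 did not, and no test was made between them. With the spike-in level of each array, described above, as a covariate, SLC3A2 differed by -0.50. SLC3A2 and SLC7A5 were chosen after their values were seen. Elsewhere, so were SLC1A5, SLC2A2, SLC2A6, SLC4A1, SLC6A14, SLC11A2, SLC16A13, SLC20A2, SLC22A9, SLC31A2, SLC34A1, SLC3A1, SLC6A17, SLC30A5, SLC30A6, SLC35A1, SLC35A5, SLC39A11, SLC46A1 and SLC66A1.

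The brightest and the third brightest member were amino acid carriers whose intervals for the difference spanned 0. SLC38A2 averaged 11.46 ± 0.11 in Brahman and 11.44 ± 0.22 in Holstein. Its difference of 0.019 has a 95% interval of -0.29 to 0.33, and its sign turned when array medians were subtracted. The second SLC38A2 probe set, at a mean level of 8.21, differed by 0.30. SLC7A1, the main importer of cationic amino acids, read 10.40, 10.11 and 9.96 in Brahman and 10.78, 9.88 and 10.63 in Holstein. Holstein 1 and Holstein 3 were higher than every Brahman array, but Holstein 2 was the lowest of all 6. The difference was -0.27 (interval -0.83 to 0.28). It was -0.097 without Holstein 1, -0.55 without Holstein 2, -0.18 without Holstein 3 or Brahman 3, and -1.19 with the spike-in covariate. The small neutral amino acid carriers SLC1A4 (0.24, without overlap, and 0.075 with the spike-in covariate) and SLC1A5 (0.23, with overlap) had higher values in Brahman, with limma adjusted p-values of 0.371 and 0.506. SLC3A1, the heavy chain of kidney cystine transport, differed by -0.0039.

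Among 12 hexose and sodium-coupled sugar carriers, 7 had higher and 5 lower values. The 2 that reached an unadjusted p under 0.05 are the facilitative glucose carriers that leukocytes are known to use. SLC2A1, or GLUT1, read 8.19, 8.20 and 7.72 in Brahman 1, 2 and 3 and 7.44, 7.71 and 7.53 in Holstein 1, 2 and 3. Brahman 1 and Brahman 2 stood well above the other 4 arrays, and Brahman 3 barely above Holstein 2. The difference was 0.48 (SE 0.15, limma adjusted p = 0.267), a 1.39-fold higher signal. SLC2A3, or GLUT3, read 9.11, 9.98 and 9.10 in Brahman and 8.64, 8.38 and 9.11 in Holstein, in the same array order. Brahman 2 was far above the rest, while Holstein 3 was as high as Brahman 1 and Brahman 3. Its difference of 0.69 (SE 0.28, limma adjusted p = 0.347) was the largest positive one of any member, and it became 0.39 without Brahman 2 and 0.34 with the spike-in covariate. SLC2A6, a lysosomal relative, went the other way at -0.50, mostly through Holstein 1 (-0.20 without it): it read 8.36, 8.24 and 8.25 in Brahman and 9.36, 8.57 and 8.40 in Holstein.

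Of the 3 monocarboxylate carriers, SLC16A3, the lactate exporter MCT4, had higher values in Brahman on each of its 3 probe sets. The brightest read 9.68, 9.53 and 9.55 in Brahman 1, 2 and 3 and 9.05, 9.44 and 9.23 in Holstein 1, 2 and 3. Every Brahman array was above every Holstein array, narrowly at the closest pair. The difference was 0.35 (SE 0.12, limma adjusted p = 0.293), and the other SLC16A3 probe sets differed by 0.33 and 0.37. They target 1 gene on the same arrays and are not replicates. SLC16A1, or MCT1, which can carry lactate either way, differed by -0.32 with overlap, and the orphan SLC16A13 lay between. Both lactate carriers need the chaperone basigin at the cell surface, and its gene BSG differed by -0.15 (limma adjusted p = 0.582).

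Zinc carriers numbered 17, with 11 higher and 6 lower values in Brahman and a median of 0.092. Of the importers, SLC39A6 (ZIP6) and SLC39A8 (ZIP8) stood out in opposite directions. SLC39A6 read 9.82, 10.04 and 10.00 in Brahman 1, 2 and 3 and 9.28, 9.80 and 9.58 in Holstein 1, 2 and 3. The Brahman values were all higher, although the gap between Brahman 1 and Holstein 2 was very narrow. The difference was 0.41 (SE 0.14, limma adjusted p = 0.301), and the second probe set gave 0.44 with overlap. SLC39A8, which also brings manganese into the cell, read 5.21, 5.35 and 5.11 in Brahman and 5.72, 5.59 and 5.50 in Holstein. All Holstein values were above all Brahman values, and the difference was -0.38 (SE 0.10, limma adjusted p = 0.214). Its level lies only just above the lower quartile of all probe sets, which limits how far it can be read as a fold.

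Of the zinc exporters, SLC30A2 (ZnT2), which loads zinc into vesicles, had higher values in Brahman. It read 6.41, 6.53 and 6.48 in Brahman and 6.22, 6.08 and 6.24 in Holstein, a difference of 0.29 (SE 0.091, limma adjusted p = 0.259) without overlap. SLC30A5 and SLC30A6, which work as a pair in the secretory pathway, differed by -0.22 and 0.34, each with overlap. Of the zinc-responsive genes, MT2A, a metallothionein that binds zinc, differed by 0.039 and MTF1, the factor that senses zinc, by 0.11, both with overlap.

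The 4 iron and copper carriers all read lower in Brahman, where 51.7% of all genes did. Their median of -0.20 stayed below 0 in every setting run, from -0.31 when the spike-in level was a covariate to -0.12 without Holstein 1. None of the 4 reached an unadjusted p under 0.05. SLC11A1, the NRAMP1 metal carrier of phagocyte vacuoles, read 9.08, 9.37 and 9.27 in Brahman 1, 2 and 3 and 9.86, 9.25 and 9.57 in Holstein 1, 2 and 3. Holstein 1 and Holstein 3 were above every Brahman array, while Holstein 2 lay among them. The difference was -0.32 (SE 0.16, limma adjusted p = 0.437). It was -0.17 without Holstein 1 and -0.79 with the spike-in covariate. Within Holstein the monocyte, neutrophil and NK and cytotoxic marker sums were also highest in Holstein 1. The mean log2 value of the NK and cytotoxic markers was instead lowest there, at 7.36. The part of these markers in the SLC11A1 difference was not tested. The copper importer SLC31A1 differed by -0.21 without overlap, its relative SLC31A2 by -0.19 and the endosomal iron carrier SLC11A2 by -0.056. With 1 array left out SLC11A2 ran from -0.13 to 0.036, so its sign was not settled.

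Among 9 carriers of bicarbonate, protons and sodium, 2 reached an unadjusted p under 0.05, both higher in Brahman. SLC4A7, a sodium bicarbonate importer that raises the pH of the cell, was the second brightest member and read 10.78, 10.68 and 10.34 in Brahman 1, 2 and 3 and 9.74, 10.36 and 10.14 in Holstein 1, 2 and 3. Holstein 1 was low and Brahman 1 high, but Brahman 3 was below Holstein 2, so the breeds overlapped. The difference was 0.52 (SE 0.18, limma adjusted p = 0.297). SLC4A2, a chloride and bicarbonate exchanger that lowers it, read 7.77, 7.83 and 7.78 in Brahman and 7.63, 7.45 and 7.44 in Holstein. The Brahman values lay within 0.1 of each other and above all Holstein values, with a difference of 0.28 (SE 0.092, limma adjusted p = 0.274). SLC4A1AP, an intracellular protein named for binding SLC4A1 and not a carrier, differed by -0.27 without overlap.

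Calcium exchangers gave the member with the smallest p. SLC8B1, which lets calcium out of mitochondria in exchange for sodium, read 7.80, 7.71 and 7.83 in Brahman 1, 2 and 3 and 8.42, 8.12 and 8.16 in Holstein 1, 2 and 3. All Holstein arrays exceeded all Brahman arrays, and the Brahman values were close together. The means were 7.78 ± 0.061 and 8.23 ± 0.16, a difference of -0.45 (SE 0.11, interval -0.71 to -0.20, limma adjusted p = 0.181), or 1.37-fold. SLC24A1, a potassium-dependent exchanger of rod photoreceptors, differed by 0.25 without overlap on its brightest probe set, and by 0.13 and -0.0088 on the others.

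Chloride cotransporters split. SLC12A2, the NKCC1 importer that swells cells, read 7.56, 8.09 and 7.54 in Brahman and 6.87, 7.68 and 7.28 in Holstein, with Holstein 1 low and Brahman 2 high, and differed by 0.46 with overlap. This became 0.25 without Holstein 1, 0.28 without Brahman 2 and 1.11 with the spike-in covariate. The second SLC12A2 probe set, at a mean level of 7.33, differed by 0.18. SLC12A4, the KCC1 exporter, read 7.73, 7.32 and 7.53 in Brahman and 7.74, 7.75 and 7.81 in Holstein. Holstein values were tight and just above Brahman 1, for a difference of -0.24 (limma adjusted p = 0.428), or -0.14 without Brahman 2. The 4 phosphate carriers all had higher values in Brahman, where 48.3% of all genes did. Their median of 0.25 stayed above 0 in every setting run (0.15 without Brahman 1 to 0.32 with the spike-in covariate). Among probe sets above the median the group held only 1 gene. Single members were less steady. SLC34A1 (0.12) turned to -0.17 with the spike-in covariate. SLC20A2 (0.41, with overlap) read 6.40, 5.39 and 5.48 in Brahman 1, 2 and 3, and fell to as little as 0.090 with 1 array left out. SLC20A1, a sodium phosphate importer that is also bright here, read 10.34, 10.19 and 10.53 in Brahman 1, 2 and 3 and 9.98, 10.17 and 10.00 in Holstein 1, 2 and 3. Brahman 2 stood just above Holstein 2 and the rest were apart, for a difference of 0.30 (SE 0.12, limma adjusted p = 0.330). SLC34A2, the phosphate carrier of lung and gut, differed by 0.19 at a level below the lower quartile.

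**Figure D3:**
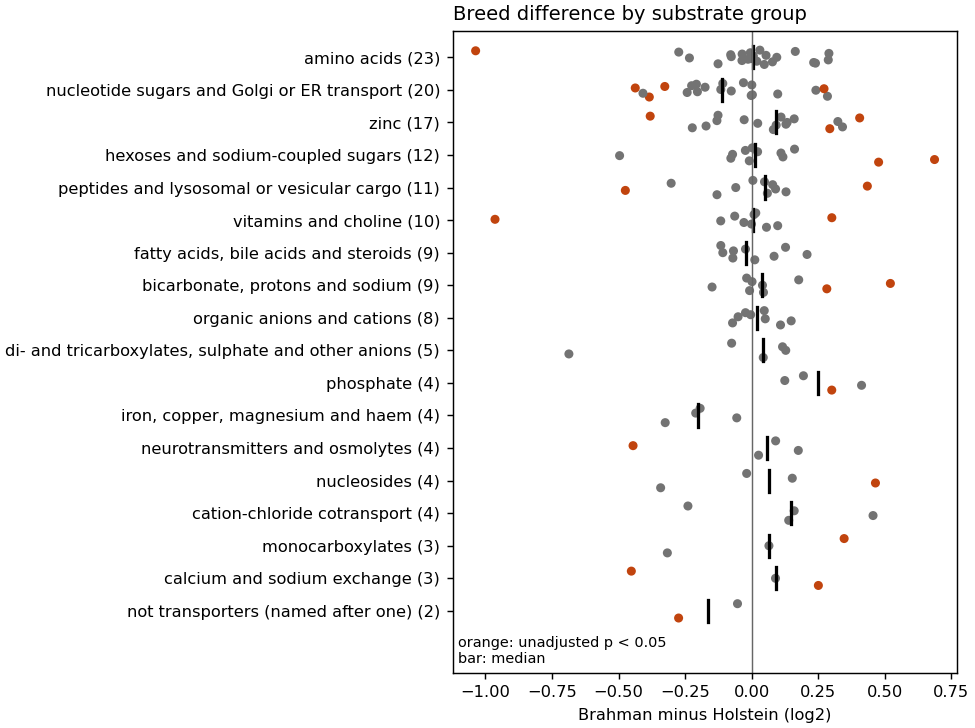
Brahman minus Holstein difference (log2) of every solute carrier gene by substrate group, with the number of genes in brackets and each median as a bar; orange points have an unadjusted p under 0.05. The phosphate carriers (4 of 4 higher) and the iron and copper carriers (4 of 4 lower) lie to one side, and the large amino acid group is centred near 0.

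Carriers that load nucleotide sugars and other donors into the Golgi and endoplasmic reticulum mostly had lower values in Brahman. Values were lower in 14 of 20, and the median of -0.11 ran from -0.15 to -0.057 over the settings. Over all genes 51.7% had lower values. SLC33A1, which brings acetyl-CoA into the endoplasmic reticulum, read 7.61, 7.54 and 7.82 in Brahman 1, 2 and 3 and 7.95, 8.16 and 8.02 in Holstein 1, 2 and 3. The breeds did not overlap, and Brahman 3 was the Brahman array closest to Holstein. The difference was -0.38 (SE 0.11, limma adjusted p = 0.229), and it was -0.14 once the spike-in level was a covariate. SLC35E3, a family member without a settled cargo, read 6.83, 7.16 and 6.78 in Brahman and 7.29, 7.33 and 7.45 in Holstein and differed by -0.44 (SE 0.12, limma adjusted p = 0.229), while its second probe set gave -0.068. SLC35F6 read 7.55, 7.76 and 7.48 in Brahman and 7.95, 7.93 and 7.89 in Holstein, a difference of -0.33 (limma adjusted p = 0.259) with tight Holstein values. SLC35E2B was the member of this group that was higher at an unadjusted p under 0.05, at 0.27, and turned to -0.032 with the spike-in covariate.

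Of 4 nucleoside carriers, SLC29A1 (ENT1), which takes up adenosine and other nucleosides, read 6.96, 6.59 and 6.88 in Brahman 1, 2 and 3 and 6.43, 6.03 and 6.58 in Holstein 1, 2 and 3. Brahman 2 was barely above Holstein 3, and Holstein 2 was far below. The difference was 0.46 (SE 0.17, limma adjusted p = 0.302), and 0.068 with the spike-in covariate. SLC29A2 (ENT2) differed by 0.15 with overlap.

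Vitamin and choline carriers, 10 genes, held 2 members of the SLC46 family at an unadjusted p under 0.05 in opposite directions. SLC46A2, first described in thymic stroma, read 7.27, 7.60 and 6.92 in Brahman 1, 2 and 3 and 8.90, 8.14 and 7.64 in Holstein 1, 2 and 3. Brahman 2 reached almost to Holstein 3, and Holstein 1 stood far above. The means were 7.26 ± 0.34 and 8.23 ± 0.64, a difference of -0.96 (SE 0.32, interval -1.70 to -0.22, limma adjusted p = 0.274). It was -0.63 without Holstein 1 and -1.58 with the spike-in covariate. SLC46A3, a lysosomal member, read 9.67, 9.93 and 9.74 in Brahman and 9.46, 9.42 and 9.56 in Holstein, a difference of 0.30 (SE 0.10, limma adjusted p = 0.285) without overlap. SLC46A1, the proton-coupled folate carrier, differed by -0.12 on its brightest probe set and by 0.44 on another, so no single direction can be given for it. SLC44A2, a choline carrier known as a neutrophil antigen, read 9.92 ± 0.079 and 9.93 ± 0.095, with an interval for the difference of -0.22 to 0.22.

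Lysosomal and vesicular carriers, 11 genes, included SLC17A5, or sialin, which returns sialic acid from the lysosome. It read 6.76, 7.27 and 7.13 in Brahman and 7.52, 7.82 and 7.25 in Holstein, with overlap, and differed by -0.47 (SE 0.18, limma adjusted p = 0.328), or -0.059 with the spike-in covariate. SLC66A3 was bright and centred on a difference of 0.0044 (interval -0.30 to 0.31). The monoamine carriers went in opposite directions. SLC18A2 (VMAT2), which packs serotonin and histamine into granules, read 5.78, 5.39 and 5.54 in Brahman and 5.22, 5.27 and 4.92 in Holstein. It was higher in Brahman by 0.43 (SE 0.14, limma adjusted p = 0.269) without overlap. Its mean level of 5.35 lies only just above the lower quartile, which limits how far it can be read as a fold. SLC6A4, the serotonin importer of platelets, read 6.18, 6.87 and 6.46 in Brahman 1, 2 and 3 and 6.98, 6.97 and 6.90 in Holstein 1, 2 and 3. The Holstein values were nearly equal and just above Brahman 2, with a difference of -0.45 (SE 0.17, limma adjusted p = 0.321). Of the platelet markers, PF4 differed by -0.60, ITGB3 by 0.17 and ITGA2B, at a level below the lower quartile, by 0.099. Summed over these 3 they read 10.92 to 11.69 in Brahman and 11.27 to 11.87 in Holstein, and their part in the SLC6A4 difference was not tested. SLC6A2, the noradrenaline importer, differed by 0.17 with overlap on its brightest probe set.

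Carriers of organic ions, of fatty acids and bile acids, and of dicarboxylates had no member at an unadjusted p under 0.05. Their 22 genes had medians of 0.022, -0.023 and 0.043, signs that differed between settings. In these groups SLC27A2, a fatty acid carrier and acyl-CoA ligase, differed by 0.21 and SLC51A, a bile acid exporter subunit, by 0.13, both without overlap and both below the lower quartile. SLC51A turned to -0.022 with the spike-in covariate. SLC22A23 (0.15), the lipocalin receptor SLC22A17 (0.11) and SLC26A11 (0.12) had overlapping breeds.

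Animals of a breed differed widely for a few members. In 102 of 152 (67.1%) the SD was larger in Holstein than in Brahman, as in 63.5% of all probe sets. An SD over 0.5 in a breed was seen in 8 members (5.26%) and in 4.62% of all probe sets. The widest were in Holstein. SLC13A3, a dicarboxylate importer, read 6.14, 5.93 and 6.25 in Brahman 1, 2 and 3 and 7.28, 7.09 and 6.01 in Holstein 1, 2 and 3. Holstein 3 lay with the Brahman arrays and the other Holstein arrays stood about a unit higher. The SD was 0.69 in Holstein and 0.16 in Brahman, and the difference was -0.69 (SE 0.31, limma adjusted p = 0.390). It was -0.44 without Holstein 1 and -1.08 without Holstein 3, where the limma adjusted p was 0.0525. SLC28A3, a sodium-coupled nucleoside importer, read 7.09, 7.16 and 7.04 in Brahman and 7.93, 7.64 and 6.75 in Holstein. It had the same Holstein order, with Holstein 3 the lowest of all 6 arrays, and differed by -0.34 (SD 0.61 in Holstein), or by -0.098 without Holstein 1 and -0.69 without Holstein 3.

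Within Holstein, SLC7A7, SLC46A2, SLC13A3 and SLC28A3 were each highest in Holstein 1 and lowest in Holstein 3. This order was seen in 40 of the 152 members (26.3%), in 21.7% of genes taken with their brightest probe set and in 18.7% of all probe sets. The monocyte markers CD14, CD68, CSF1R and VCAN, summed, read 11.77, 11.33 and 11.13 in Holstein 1, 2 and 3 and 10.81, 11.19 and 11.20 in Brahman 1, 2 and 3. The order of these sums was the same as that of the 4 genes within Holstein, and in Brahman it was the same as that of SLC7A7 alone. Taken singly, CD68 and CSF1R had this Holstein order and CD14 and VCAN did not. CD14 read 9.62, 8.89 and 9.11 in Holstein 1, 2 and 3, and VCAN 7.55, 7.99 and 7.83. The Holstein order was not particular to monocyte markers: neutrophil marker sums read 14.99, 14.76 and 14.67 in Holstein 1, 2 and 3. Sums of 7 NK and cytotoxic markers read 11.89, 11.60 and 11.45 in the same arrays. Such a sum follows its brightest genes. The mean log2 value of these 7 markers was 7.36, 7.57 and 7.48, lowest in Holstein 1. GNLY and PRF1 had the order of the sum, and KLRD1, KLRK1 and KLRB1 were lowest in Holstein 1. CD14 differed by -0.94 and VCAN by 0.92, so the markers themselves did not share a direction between breeds. The part of cell numbers in these differences was not tested.

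**Figure D4:**
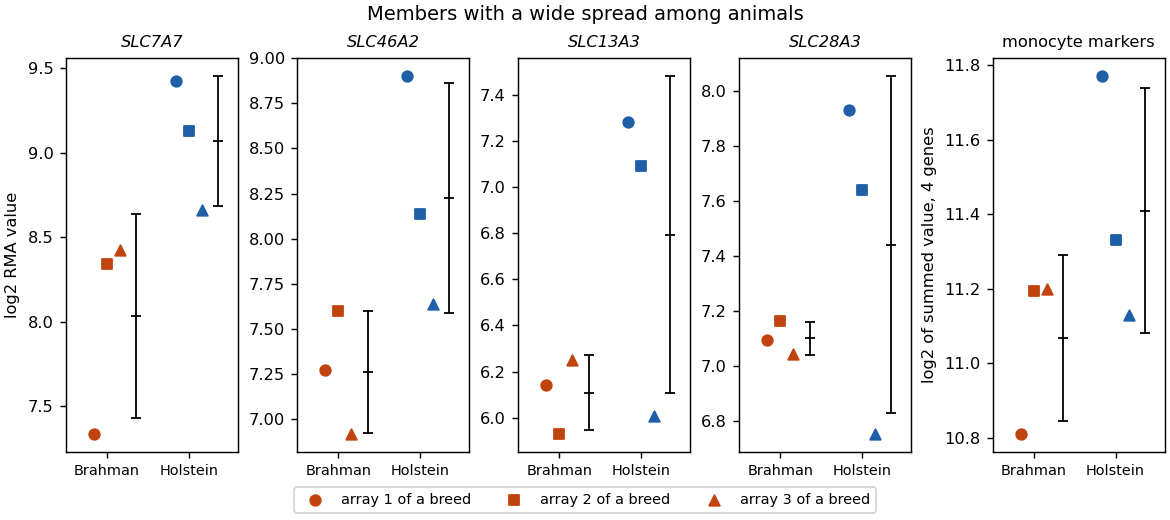
Log2 values by array of SLC7A7, SLC46A2, SLC13A3 and SLC28A3, and the log2 of the summed signal of 4 monocyte markers, with mean and SD (n = 3) beside each breed; each panel has its own vertical axis. Holstein 1 is highest and Holstein 3 lowest of their breed in all 5 panels, for example 9.42, 9.13 and 8.66 for SLC7A7. Of the single markers in the sum, CD14 was lowest in Holstein 2 and VCAN in Holstein 1.

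Of the 42 members with several probe sets, 20 had the same sign of difference on each and 22 did not. Of the 61 probe sets not used, 4 (6.56%) reached an unadjusted p under 0.05, against 13.6% of all probe sets: both other ones of SLC16A3, 1 of SLC46A1 and 1 of SLC6A17, a neuronal amino acid carrier. SLC35A5, a nucleotide sugar carrier with 4 probe sets, ranged from -0.41 to 0.24 between them.

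For most of the 23 members, reaching the threshold depended on which arrays were in the fit, and a fit with fewer arrays is also less precise. SLC8B1, SLC39A8, SLC33A1, SLC35E3 and SLC7A7, all lower in Brahman, kept an unadjusted p under 0.05 with each array left out in turn, and the other 18 did not. Counted over all members, the number of higher ones went from 13 to 6 without Brahman 1 and to 6 without Brahman 2. The number of lower ones went from 10 to 6 without Brahman 3 and to 15 without Holstein 3. These counts include members outside the 23, such as SLC6A6 without Brahman 1 and SLC13A3 without Holstein 3. Of the 23, 12 remained without Brahman 1, 15 without Brahman 2, 13 without Brahman 3 and 17 without Holstein 3. Once the spike-in level was a covariate, 7 of the 23 kept an unadjusted p under 0.05: SLC8B1, SLC39A8 and SLC46A2 among the lower, and SLC16A3, SLC4A7, SLC39A6 and SLC20A1 among the higher. Another 9 members reached it in that fit: SLC35A1, SLC12A2 and SLC39A11 with higher values, and SLC66A1, SLC2A6, SLC3A2, SLC11A1, SLC16A1 and SLC7A1 with lower ones. The 16 make 10.5% of the members, where 9.99% of all probe sets reached it. Of the 23, 5 had a difference over 1.5 times larger with the covariate, 6 over 1.5 times smaller and 1 of the other sign. The larger ones were SLC16A3 (0.65), SLC20A1 (0.54), SLC39A6 (0.88), SLC4A7 (0.88) and SLC46A2. The smaller ones were SLC30A2 (0.18), SLC4A2 (0.15), SLC2A3, SLC33A1, SLC29A1 and SLC17A5. Of the members gained, SLC2A6 differed by -1.10 and SLC16A1 by -0.73 in that fit.

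Genes that work with solute carriers were taken from a list of partners and regulators. Of its 45 genes (chaperones, amino acid sensing by mTORC1, metal handling, glucose phosphorylation) 32 were measured. Limma called 0 of them; 3 had an unadjusted p under 0.05, which is 9.38% against the 13.6% background, and this became 1 without Holstein 2, Brahman 1 or Brahman 3 and 5 without Holstein 3. These were the hexokinase HK3 of phagocytes (-0.57), LAMTOR3, part of the lysosomal anchor of mTORC1 (-0.44), and PRKAA1, a catalytic subunit of the energy sensor AMPK (0.33). Their limma adjusted p-values were 0.291, 0.281 and 0.259. ATF4, which induces amino acid carriers under starvation, differed by 0.086 and HIF1A, which induces SLC2A1 under low oxygen, by 0.0032. Among 18 measured ABC and SLCO transporters, which lie outside the SLC rule, 3 had higher and 1 had lower values at an unadjusted p under 0.05. Together these were 22.2% of the 18, against 13.6% of all probe sets and 15.8% of genes. The efflux pump gene ABCG2 differed most, by 1.07 (limma adjusted p = 0.186).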

How the data were processed

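Total RNA was hybridised to 1 Affymetrix bovine array per animal. The deposited values are log2 signals that the authors computed by RMA, as the submitters' processing notes state, without a version. RMA subtracts background, gives all arrays 1 distribution and combines the probes of a set, so a shift of all transcripts together cannot be seen. The table holds 24128 probe sets; 112 array controls were left out and 24016 tested. Number of arrays, not depth, limits the precision.

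Brahman was compared with Holstein with limma 3.58.1 in R 4.3.3 (lmFit, eBayes, breed as the only term, two-sided, Benjamini-Hochberg over all probe sets, called at an adjusted p under 0.05). Intervals are 95% and unadjusted. The pipeline was tested on simulated data. Gene names come from the platform annotation; all 152 members matched the RefSeq table of ARS-UCD2.0 by Entrez identifier. No genome build is named, so no coordinates are given.

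Members, gene lists and marker lists were chosen with earlier results of these data known. Named genes are up to 12 per direction with the smallest p among those without overlap, the 10 brightest, 2 per substrate group of at least 3 genes, and the 3 most variable. The labels do not say that replicate numbers pair animals. Alternatives were other normalisations, filters, priors, array weights, a replicate block, a spike-in covariate and leaving out arrays.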

Additional observations from a re-analysis of the deposited data

How the results depend on the processing

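No member was called under any of the 15 alternatives, and each had 0 calls. At an unadjusted p under 0.05 the 13 higher members became 8 among probe sets above the median and 7 with the spike-in covariate, and ran from 6 to 11 with 1 array left out; the 10 lower ran from 6 to 15. The members' median difference of 0.0053 was -0.041 among probe sets above the median and ran from 0.0016 to 0.040 with 1 array left out. Of the substrate groups with at least 3 genes, 3 had a median below 0. This count was 9 after quantile normalisation, 7 with array medians subtracted, 5 above the lower quartile and 8 above the median. Of those last 8, the calcium and nucleoside groups held only 2 genes there, and the fatty acid and neurotransmitter groups only 1. The count was 8 with the spike-in covariate, 5 with the mean of all probe sets per gene, and 2 to 8 with 1 array left out. The sign of most group medians is thus not settled, and the cause was not tested. Partners and regulators at an unadjusted p under 0.05 ran from 1 to 5.

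The replicate block gave 10 called probe sets in place of 33, and the spike-in covariate gave 0, with 2400 at an unadjusted p under 0.05; with 1 array left out the count ran from 5 to 55. Same-numbered arrays correlated in their deviations at 0.11, -0.043 and -0.074, and the other pairs at -0.086 to 0.12. The labels do not say that the numbers pair animals, and 3 arrays per breed cannot decide it. The block left 21 of the 23 members at an unadjusted p under 0.05. Among named genes the sign turned for SLC35E2B (-0.032) and SLC51A (-0.022) with the spike-in covariate, for SLC38A2 (-0.0094) and SLC66A3 (-0.024) with array medians subtracted, for SLC66A3 (-0.012) and SLC44A2 (0.0077) with array weights, for SLC44A2 after quantile normalisation (0.046) and with the mean of its probe sets (0.024). With 1 array left out SLC38A2 ran from -0.078 to 0.14, SLC66A3 from -0.13 to 0.11 and SLC44A2 from -0.048 to 0.047.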
